A study of Homo sapiens with 38 samples.

Results

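A set of 10 homeobox genes, HOXC4, HOXC6, HOXC8, HOXC9, HOXC10, HOXC13, HOXD8, HOXD9, HOXD10 and HOXD13, were followed through 36 RNA-seq libraries of 2 human prostate cell lines. They were chosen by name, as the rows of the 2 deposited expression tables whose Ensembl identifier maps to one of these symbols. All 10 were present in both tables, out of 60252 genes in each. The files carry HOXC6 as ENSG00000197757.7_2, HOXC9 as ENSG00000180806.4_2, HOXD10 as ENSG00000128710.5_2 and HOXD13 as ENSG00000128714.5_1.

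The study deleted a region of chromosome band 7p15.2 tied to prostate cancer risk and, in a separate experiment, forced expression of HOXA13, a homeobox gene of the HOXA cluster. RWPE-1 cells are immortalized epithelial cells of a normal prostate. C4-2B cells are prostate cancer cells that descend from the LNCaP line. In RWPE-1, 7 genome-edited libraries with the risk region deleted stood beside 5 controls labelled wild type that also came from the editing treatment. Another 3 RWPE-1 libraries came from cells carrying a HOXA13 expression vector and 3 from cells carrying the matching eGFP plasmid, collected 48 hours after transfection from the top 10% of the eGFP sort. In C4-2B, 3 control lines labelled wild type (1, 2 and 3) and 3 full-deletion clones (m, ld9 and le5) were sequenced with 3 libraries each. The deletion clones came from 2 parent colonies after 2 editing rounds, since the line is tetraploid by the labels. For RWPE-1 the labels name no separate clones or cultures behind the libraries, so its p-values measure the spread between these libraries, which may be technical. The edited cells still carried both HOX clusters named here, since the deletion lies on another chromosome.

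HOX genes encode transcription factors that give cells their position along the body axis, and their order along each cluster follows the order of the body regions in which they are used. The HOXC cluster lies on chromosome 12 and the HOXD cluster on chromosome 2. Genes with low numbers sit at the end used toward the head, and genes of group 13 at the end used in the genital and tail region. HOXD13 and HOXA13, which belong to the same paralog group, act in the urogenital tract, and HOXC6 is known as a gene of high expression in prostate cancer. The clusters also hold antisense and long noncoding RNAs such as HOTAIR, HAGLR and HOXC13-AS. Polycomb complexes keep unused HOX genes silent, and PBX and MEIS proteins bind DNA together with HOX proteins.

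RefSeq promoter entries (GRCh38.p14, from 250 bases before to 50 after the start) matched 4 of the 10 members, HOXC4, HOXD8, HOXD10 and HOXD13. Those of HOXC4, HOXD10 and HOXD13 are shown because these 3 members carry the contrasts described below: HOXD10 was the highest member of RWPE-1 and was listed at 0 in C4-2B, HOXC4 was listed at 0 in the RWPE-1 deletion libraries and read in every C4-2B library, and HOXD13 was read in both lines. Capitals mark each CG pair, the site of DNA methylation.
HOXD10, chr2:176116528-176116827, plus strand: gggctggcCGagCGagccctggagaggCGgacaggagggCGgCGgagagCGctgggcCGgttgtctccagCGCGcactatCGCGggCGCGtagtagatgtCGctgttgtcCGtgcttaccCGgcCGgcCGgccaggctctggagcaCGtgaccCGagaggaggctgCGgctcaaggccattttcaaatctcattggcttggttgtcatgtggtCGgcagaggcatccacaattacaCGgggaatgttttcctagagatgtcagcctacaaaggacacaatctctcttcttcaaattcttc
HOXD13, chr2:176092471-176092770, plus strand: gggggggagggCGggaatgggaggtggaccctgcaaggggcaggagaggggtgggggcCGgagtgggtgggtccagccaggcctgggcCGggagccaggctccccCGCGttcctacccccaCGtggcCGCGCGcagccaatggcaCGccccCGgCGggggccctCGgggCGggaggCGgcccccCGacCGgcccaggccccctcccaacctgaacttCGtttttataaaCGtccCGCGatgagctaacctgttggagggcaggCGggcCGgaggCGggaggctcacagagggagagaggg
HOXC4, chr12:54016638-54016937, plus strand: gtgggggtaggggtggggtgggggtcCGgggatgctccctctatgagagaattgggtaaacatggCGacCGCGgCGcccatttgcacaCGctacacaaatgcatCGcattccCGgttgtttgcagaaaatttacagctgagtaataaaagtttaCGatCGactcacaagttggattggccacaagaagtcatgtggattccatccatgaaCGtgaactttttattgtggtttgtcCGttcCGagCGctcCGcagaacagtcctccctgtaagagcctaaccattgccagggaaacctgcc
The HOXD10 stretch holds 23 CG pairs, HOXD13 holds 24 and HOXC4 holds 15, against a median of 14 over 35116 RefSeq promoters of the same length. As many CG pairs or more occur in 35.8% of these promoters for HOXD10, in 33.9% for HOXD13 and in 48.9% for HOXC4. HOXD8, which is not printed, holds 34, a number that 15.6% of promoters reach. The letters TATAAA, searched on both strands, give 2 matches in the HOXD13 stretch, 1 on each strand of a single place (tttataaa). They do not occur in the other 3 stretches, and 11.5% of all promoters hold them. TAAT, the core letters of many homeodomain sites, occurs 1 time each in HOXC4 and HOXD10 on both strands together, and 50.2% of promoters hold it. These matches describe the letters only. The expression files carry no methylation or binding at these stretches.

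Levels are given in TPM, a share of the library's transcripts corrected for gene length. The 2 lines carried their HOX transcripts from different clusters. In RWPE-1 the 4 HOXD members together reached 43.2 to 62.4 TPM in a library, and the 6 HOXC members together 0.21 to 16.6 TPM. In C4-2B the HOXC members together reached 40.3 to 57.3 TPM and the HOXD members together 0 to 1.66 TPM. In all 18 libraries of each line the cluster whose members led in that line stood above the other. Other HOX clusters are not in these sums, and HOXB13 alone ranged from 25.3 to 103 TPM in C4-2B. The 2 tables may have been normalized separately, so levels set side by side across lines are a description and were not tested.

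**Figure D1:**
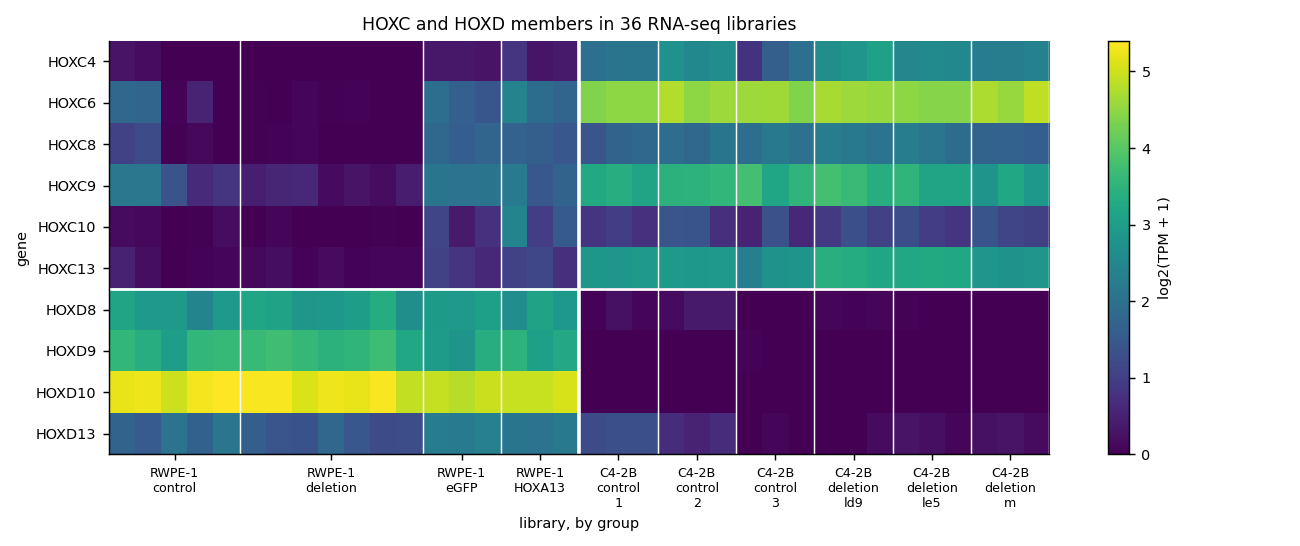
Heat map of log2(TPM + 1) for the 10 members (rows) in 36 libraries (columns, grouped by cell line and group; thick white lines part the cell lines and the clusters). HOXD8, HOXD9 and HOXD10 are bright in every RWPE-1 library and dark in C4-2B, HOXC6, HOXC9 and HOXC13 are bright in C4-2B, and the RWPE-1 deletion columns are dark across the HOXC rows.

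The order of members differed as well. In the RWPE-1 controls HOXD10 led with 36.8 ± 3.89 TPM (SD, n = 5), above HOXD9 at 9.87 ± 1.75 TPM, HOXD8 at 6.38 ± 1.24 TPM and HOXD13 at 2.60 ± 0.633 TPM. HOXD10 did not overlap HOXD9, and HOXD8 did not overlap HOXD13, whereas the ranges of HOXD9 and HOXD8 overlapped although HOXD9 was above HOXD8 in each of the 5 libraries. HOXC9 followed at 1.96 ± 1.41 TPM, and HOXC6, HOXC8, HOXC13, HOXC4 and HOXC10 had means of 1.07 TPM or less with ranges that overlapped their neighbours.

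In the 9 control libraries of C4-2B, HOXC6 led with 22.3 TPM (19.6 to 26.6), followed by HOXC9 with 9.89 TPM (7.92 to 12.8) and HOXC13 with 6.01 TPM (3.96 to 6.58). These 2 steps held in each of the 9 libraries, and the ranges did not overlap. HOXC4 at 3.43 TPM, HOXC8 at 2.74 TPM, HOXC10 at 0.998 TPM and HOXD13 at 0.682 TPM each overlapped the next in order. HOXD10 was listed at 0 in all 18 C4-2B libraries, and HOXD9 was listed at 0 in 17 of them and at 0.03 TPM in library 1 of control line 3. Both were silent by the limit used here, under 0.1 TPM in each library of a table. HOXD8 was low in C4-2B, with no library above 0.31 TPM. HOXC4 was the low member of RWPE-1, with no library above 0.78 TPM.

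Several neighbours of the members within each cluster followed a similar division, and others did not. HOXD11, a gene of limb and genital patterning beside HOXD10, ranged from 23.1 to 39.1 TPM in RWPE-1 and was listed at 0 in all C4-2B libraries, as were HOXD3, HOXD4 and the antisense RNA HOXD-AS2. In RWPE-1 HOXD3 reached at most 1.27 TPM and HOXD4 at most 1.18 TPM, and HOXD-AS2 stood between 0.77 and 5.14 TPM. HOXC12, beside HOXC13, ranged from 2.88 to 7.84 TPM in C4-2B and reached at most 0.68 TPM in RWPE-1, and its antisense neighbour HOXC13-AS ranged from 2.38 to 8.40 TPM in C4-2B and reached at most 0.27 TPM in RWPE-1. HOXC5 reached 1.47 TPM in C4-2B and 0.31 TPM in RWPE-1. Other HOXC neighbours stayed under 1 TPM in both lines and reached more in RWPE-1 than in C4-2B, HOXC11 at most 0.74 against 0.31 TPM, HOXC-AS2 0.77 against 0.21 TPM and HOTAIR 0.22 against 0.14 TPM. HOXD12 was silent in both, with at most 0.08 and 0.06 TPM. HAGLR and HAGLROS, noncoding RNAs at the HOXD1 end, were read in both lines, HAGLR from 0.44 to 3.11 TPM in RWPE-1 and from 0.12 to 3.37 TPM in C4-2B, and HAGLROS from 0.72 to 1.70 TPM and from 0.06 to 1.67 TPM. HOXC-AS1 was read at 0 to 1.81 TPM in RWPE-1 and at 0.50 to 4.39 TPM in C4-2B. HOXC4, HOXC5 and HOXC6 overlap on the genome, and the libraries came from a stranded kit but the use of strand in counting is not given in the sources used here, so reads of overlapping and antisense genes may not be told apart.

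The labelled cell types were checked on their markers. All 9 basal prostate markers had a group mean of at least 1 TPM in each RWPE-1 group, with KRT5, a basal keratin, at 2540 to 10310 TPM. All 12 luminal markers did so in C4-2B, where KLK3, the gene of prostate-specific antigen, stood at 958 to 3317 TPM and KRT5 at most at 0.14 TPM. The division was not complete. Of the 12 luminal markers, 3 reached that mean in RWPE-1 controls, 4 in deletion, 6 in eGFP and 10 in HOXA13 libraries. KRT8, a luminal keratin, stood at 144 to 897 TPM in RWPE-1 and at 218 to 358 TPM in C4-2B. Of the 9 basal markers, 2 reached that mean in C4-2B. Library 1 of control line 3 of C4-2B stood apart, with 28.4% of its TPM from mitochondrially encoded genes against 10.8% to 16.6% in the other 17. HOXA13, the gene of the vector, stood at 684, 717 and 842 TPM in the HOXA13 libraries and at 1.79 to 3.77 TPM in the eGFP libraries. Between 13661 and 15256 genes reached 1 TPM in a library.

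The deletion in RWPE-1 asks whether genes of other HOX clusters move when the 7p15.2 region is lost. The HOXD members kept levels in the deletion libraries that overlapped those of the controls, whereas HOXC members stood near 0 in the deletion libraries and were uneven among the controls. HOXA13 itself stood at 8.03 ± 1.63 TPM in the deletion libraries (SD, n = 7) and at 1.16 ± 0.709 TPM in the controls (SD, n = 5).

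HOXC6 was read at 2.49, 2.41, 0.04, 0.43 and 0 TPM in controls 1 to 5, and its deletion libraries had a lowest value of 0, a median of 0.02 and a highest value of 0.06 TPM. Controls 1 and 2 were high and the other 3 controls low, and control 5 and control 3 lay within the range of the deletion libraries. The log2(TPM + 1) difference was -0.80, with an exact two-sided permutation p of 0.0227. Without controls 1 and 2 it was -0.16, an alternative chosen after seeing the data. These controls were picked because they were high in HOXC genes, so no test of HOXC6 or HOXC8 is given without them. HOXC8, a trunk-level gene between HOXC6 and HOXC9, gave 1.06, 1.36, 0.02, 0.09 and 0 TPM in the same controls and at most 0.05 TPM in the deletion libraries. Its difference was -0.46 with an exact permutation p of 0.0354, and -0.03 without controls 1 and 2.

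HOXC9 differed from these, since its groups did not overlap. It was read at 3.47, 3.41, 1.62, 0.56 and 0.76 TPM in controls 1 to 5, and at a lowest of 0.11, a median of 0.34 and a highest of 0.51 TPM in the deletion libraries. The lowest control thus lay just above the highest deletion library. The difference was -1.05 on the log2(TPM + 1) scale, lower in 7 of 7 deletion libraries than in any control, with an exact permutation p of 0.00126, the smallest that 7 against 5 allow. Among the 30876 genes read in some library, 1.34% were lower without overlap. Without controls 1 and 2 the difference was -0.57. No test is given for it, since groups that do not overlap stay apart whichever libraries are left out.

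The remaining HOXC members were read near 0 in both groups. HOXC4 was listed at 0 in all 7 deletion libraries and in controls 3, 4 and 5, and stood at 0.22 and 0.14 TPM in controls 1 and 2. HOXC10, a lumbar-level gene, reached at most 0.06 TPM in the deletion libraries and 0.13 TPM in the controls. Its difference was -0.08 with an exact permutation p of 0.0341. HOXC13, known for its role in hair and nail, was read at 0.41 TPM in control 1, at 0.01 to 0.15 TPM in the other controls and at 0.03 to 0.15 TPM in the deletion libraries. Exact permutation p-values were 0.152 for HOXC4 and 0.52 for HOXC13. These p-values are single-gene values out of 39 exact tests of members in all comparisons and are not adjusted.

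**Figure D2:**
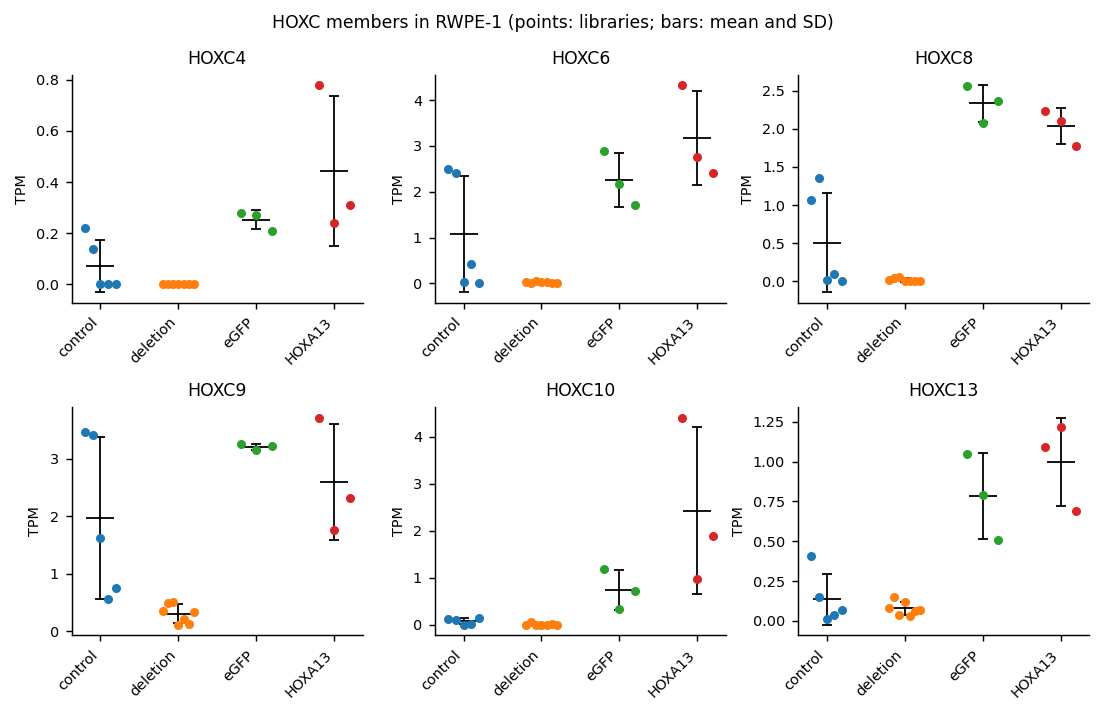
TPM of the 6 HOXC members in RWPE-1 by group, 1 point a library, with the mean and SD as bars. Deletion libraries lie at or near 0, and 2 of the 5 control points of HOXC6 and HOXC8 lie far above the other 3. The eGFP and HOXA13 libraries are from transfected and sorted cells and were not compared with the deletion libraries.

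No HOXC member passed the filter on low values in this comparison, TPM of at least 1 in 5 of the 12 libraries, so none entered the limma test that runs over all genes. The 4 HOXD members passed it. None of these 4 was called at an adjusted p under 0.05, where 10.3% of the 14186 genes tested were called. Without the filter, 1 of the 10 members was called, HOXC9 with a limma adjusted p of 0.0470, where 3.67% of 30876 genes were called.

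HOXD10 stood at 36.3, 37.3, 30.7, 38.5 and 41.2 TPM in controls 1 to 5 and at 29.0 TPM (lowest) and 37.3 TPM (median) in the deletion libraries, whose highest lay below control 5. The 2 ranges lay over each other, and the difference was -0.02 (standard error 0.09, limma adjusted p 0.936). HOXD9, a gene of trunk and limb position, ranged from 7.04 to 11.2 TPM in controls and from 8.33 to 12.3 TPM in deletion libraries, a difference of 0.13 with a limma adjusted p of 0.505. HOXD8 ranged from 4.44 to 7.90 TPM and from 5.47 to 9.12 TPM, a difference of 0.15 with a limma adjusted p of 0.505.

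HOXD13 was the HOXD member whose groups lay farthest apart. Its controls 1 to 5 were read at 2.30, 1.93, 3.17, 2.22 and 3.37 TPM, and the deletion libraries at 1.37 (lowest), 1.68 (median) and 2.44 TPM (highest). Controls 3 and 5 lay above all deletion libraries, and the other 3 controls lay within their range. The difference was -0.37 with a standard error of 0.13, an unadjusted limma p of 0.0136 and an adjusted p of 0.0852. With the spread estimated from all 18 RWPE-1 libraries the limma adjusted p was 0.0412. The exact permutation p was 0.0177. Without controls 1 and 2 the difference was -0.50, and no test is given for it, since that choice was made after seeing the data.

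The authors' deposited table of the same comparison, made from counts with DESeq2, gives HOXC9 a log2 fold change of -1.48 (adjusted p 2.08e-06), HOXD13 -0.58 (adjusted p 0.00690), HOXC6 -0.54 (adjusted p 0.0329) and HOXC8 -0.46 (adjusted p 0.0609). Of the 17985 genes with an adjusted p there, 17.4% were under 0.05 and 9.37% were under it and lower. The mean normalized count behind these values in the authors' deposited table was 23.9 for HOXC9, 17.2 for HOXC6 and 13.1 for HOXC8, against 130 for HOXD13 and 1428 for HOXD10. It also gives HOXD10 -0.06, HOXD9 0.08 and HOXD8 0.12, none with an adjusted p under 0.05. Deposited fold changes can be smaller in size than those of the TPM means. HOXC6, at -0.54 there, had a mean of 0.0186 TPM in deletion and 1.07 TPM in control libraries. HOXC11, a gene between HOXC10 and HOXC12 that did not reach 1 TPM in any library, stands in the authors' deposited table at -0.88 (adjusted p 0.00963, mean normalized count 4.85).

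**Figure D3:**
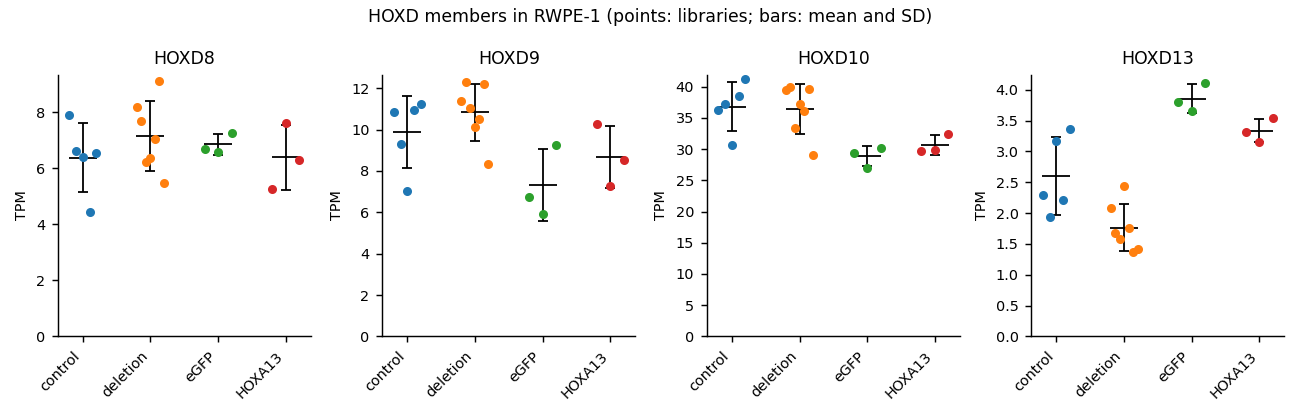
TPM of HOXD8, HOXD9, HOXD10 and HOXD13 in RWPE-1 by group, 1 point a library, with the mean and SD as bars. Deletion and control points overlap for all 4 genes, and eGFP and HOXA13 points of HOXD13 lie between 3.16 and 4.11 TPM.

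Other genes tied to HOX regulation were counted in the same comparison. Over all 14186 genes tested, 917 were called higher and 547 lower, and the counts of higher genes in the Polycomb and HOXD flank lists were near that share. Of 26 Polycomb subunits tested, 2 were higher and none lower, CBX6, a reader of the Polycomb mark, by 0.63 (limma adjusted p 0.000907) and SUZ12, a core subunit of the complex that writes it, by 0.22 (limma adjusted p 0.0416). None of 6 PBX, MEIS and PREP cofactors tested and none of 13 Trithorax and H3K27 demethylase genes was called, the smallest limma adjusted p being 0.0674 for PBX2 and 0.0554 for RBBP5. None of 13 genes tested beside the HOXC cluster was called. Of 17 tested beside the HOXD cluster 1 was higher, MTX2, a mitochondrial import gene, by 0.24 (limma adjusted p 0.0417). Of the other HOXD cluster genes 4 were tested and none called, HOXD11 with a difference of -0.01. The other HOXC cluster genes did not pass the filter. Medians were 0.06 for the 4 members tested, 0.01 for the other HOXD genes, -0.01 for cofactors and 0.06 for Polycomb genes, beside 0.05 over all genes tested.

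Forced HOXA13 expression asks whether members move with the vector gene. With HOXA13 at 748 ± 83.5 TPM against 2.67 ± 1.01 TPM (SD, n = 3 each), no member was called. Of the 10 members 9 passed the filter, all but HOXC4. The limma test called 2 of 14814 genes, or 0.0135%, HOXA13 among them, and 2002 genes had an unadjusted p under 0.05, so few calls were made anywhere.

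HOXC10 had the member difference farthest from 0. Its HOXA13 libraries were read at 4.40, 0.97 and 1.89 TPM and its eGFP libraries at 1.18, 0.32 and 0.71 TPM. Library 1 of the HOXA13 group was high, and library 2 lay below library 1 of the eGFP group. The difference was 0.88 with a standard error of 0.38, a limma p of 0.0524 and an adjusted p of 0.375, and it was 0.49 without the high library. That library also held HOXC6 at 4.33 TPM, HOXC4 at 0.78 TPM and HOXC9 at 3.71 TPM, the highest HOXA13 library for each.

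The same library stood apart in luminal prostate markers. The 9 luminal markers other than keratins and a HOX gene summed to 124 TPM in it, to 18.9 and 32.0 TPM in the other 2 HOXA13 libraries and to 15.2 to 16.7 TPM in the eGFP libraries. KLK4 was at 25.5 TPM and FOLH1 at 14.8 TPM in it, against at most 8.06 and 1.84 TPM in the other 5, and KLK3 was at 1.15 TPM. All 12 luminal markers summed to 863 to 1249 TPM in the HOXA13 group and to 875 to 963 TPM in the eGFP group, most of it from the keratins KRT8 and KRT18. The part of these markers in the HOXC values was not tested.

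HOXD13 was lower in all 3 HOXA13 libraries than in any eGFP library, at 3.31, 3.16 and 3.54 TPM against 3.66 to 4.11 TPM. The ranges did not overlap but lay close, the exact permutation p of 0.1 is the smallest for 3 against 3, and 5.36% of the 31922 genes read were lower without overlap. The limma difference was -0.16 with an adjusted p of 0.590. HOXD10 was read at 29.7, 29.8 and 32.5 TPM in the HOXA13 libraries and at 29.3, 27.1 and 30.2 TPM in the eGFP libraries, which overlap. Its difference was 0.09 with a standard error of 0.08. The other members overlapped between groups, with differences of 0.34 for HOXC6, -0.13 for HOXC8, -0.26 for HOXC9, 0.17 for HOXC13, -0.10 for HOXD8 and 0.23 for HOXD9, each with a limma adjusted p of at least 0.533.

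The authors' deposited table for the overexpression gives no member an adjusted p under 0.05, where 12.1% of 12329 genes have one. It leaves HOXC10 (log2 fold change 0.28), HOXC13 (0.11) and HOXC4 (0.12) without an adjusted p. HOXA13 itself has a log2 fold change of 2.08 there, against a ratio of mean TPM of 280. Deposited fold changes can thus be far smaller than TPM ratios. In the HOXD cluster, the authors' deposited table gives HAGLR -0.40 with an adjusted p of 0.0392. No gene of the cofactor (8 tested), Polycomb (26), Trithorax (13), HOXC flank (13) or HOXD flank (15) lists was called by limma. Among them MEIS2 had a difference of 0.39, PHF1 of 0.23 and KDM6A of -0.60, with limma adjusted p of 0.514, 0.301 and 0.280. The other HOXD cluster genes tested were HOXD11 at 0.07, HAGLR at -0.42, HAGLROS at 0.01 and HOXD-AS2 at -0.29, none called by limma.

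**Figure D4:**
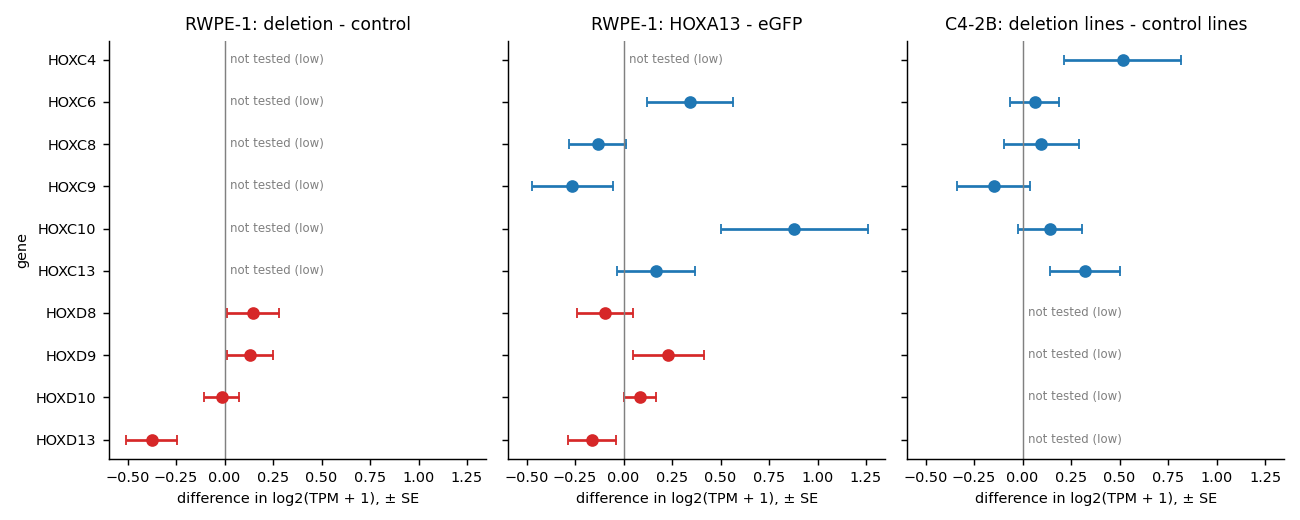
Difference in log2(TPM + 1), with its standard error from limma, for each member in 3 comparisons (blue, HOXC; red, HOXD; members that did not pass the filter on low values are named as not tested). No member in these 3 panels was called, and HOXC10 under HOXA13 (0.88) lies farthest from 0.

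The eGFP libraries were also set beside the 5 controls of the editing experiment, a comparison added after the values were seen because HOXC levels stood apart between them. Editing treatment of the controls, transfection and sorting of the eGFP cells, and any batch cannot be told apart here. HOXC members were read in all 3 eGFP libraries. HOXC8 stood at 2.56, 2.08 and 2.37 TPM, above all 5 controls, of which the highest was 1.36 TPM. Its log2(TPM + 1) difference was 1.25, and it would have passed the filter (TPM of at least 1 in 3 libraries) on the eGFP libraries alone. The comparison was chosen on HOXC levels, so no p-value is given for HOXC members in it. HOXC10 (0.32 to 1.18 TPM) and HOXC13 (0.51 to 1.05 TPM) were also above all 5 controls, and 18.5% of 32156 genes read were higher without overlap.

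HOXC9 stood at 3.26, 3.15 and 3.21 TPM in the eGFP libraries and HOXC6 at 2.89, 2.17 and 1.71 TPM. HOXC6 overlapped controls 1 and 2, HOXC9 lay just below them, and both genes lay above controls 3, 4 and 5. Leaving out controls 1 and 2 gave differences of 1.12 for HOXC9 and 1.50 for HOXC6. These controls were picked because they were high in these genes, so no test is given for the values without them.

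A pair of HOXD members was called by limma in this comparison. HOXD10 fell by 0.34 (limma adjusted p 0.0247), at 27.1 to 30.2 TPM against 30.7 to 41.2 TPM, lower in 3 of 3 eGFP libraries than in any control, as were 12.2% of the genes read. HOXD13 rose by 0.45 (limma adjusted p 0.0435), at 3.66 to 4.11 TPM against 1.93 to 3.37 TPM, higher in 3 of 3. Without the filter HOXD13 had a limma adjusted p of 0.101. In all, 3 of 7 members tested were called, HOXC8, HOXD10 and HOXD13, in a comparison that called 47.1% of its 15066 genes. The count is thus near the background share. HOXC8 is in it through the eGFP libraries, and its call is no test, since the comparison was chosen on HOXC levels. The call of HOXD10 was lost without eGFP library 1 (adjusted p 0.0969) or 2 (0.0672) and that of HOXD13 without most single libraries, with a limma adjusted p of up to 0.125.

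List counts in that comparison stand beside 24.4% of all genes higher and 22.7% lower. Of 8 cofactors tested 5 rose, among them MEIS2 (1.38), MEIS3 (0.84), PBX3 (0.50) and PBX2 (0.46), and none fell. Of the 26 Polycomb subunits 9 rose and 2 fell, with PCGF5 at 1.53 and SUZ12 at -0.47, and of 13 Trithorax and demethylase genes 3 rose and 3 fell, shares of both lists called that are near the 47.1% over all genes. Beside the HOXC cluster 4 of 13 rose and 5 fell, and beside the HOXD cluster 2 of 17 rose and 9 fell. HOXD-AS2 rose by 1.10 and HAGLR by 0.88, both with a limma adjusted p under 0.05. CD68, a lysosomal gene used as a macrophage marker and the one immune marker of 6 with a mean of at least 1 TPM in RWPE-1, stood at 135 to 159 TPM in the eGFP libraries and at 9.88 to 50.4 TPM in the controls. The 9 basal markers summed to 9986 to 10500 TPM and to 10428 to 19209 TPM. The part of these shifts in the HOX values was not tested.

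In C4-2B the deletion asks the same question in a line that carries HOXC. Tested over lines, 3 against 3, no member was called, nor was any of 14820 genes (0%), with 529 at an unadjusted p under 0.05. The 3 deletion clones came from 2 parent colonies, so they may not be independent replicates. The authors' deposited table has an adjusted p under 0.05 for 8.56% of 17075 genes. Of the 10 members 6 passed the filter, the HOXC members, and each had a limma adjusted p of 0.993.

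HOXC6 stood between 19.6 and 28.5 TPM in all 18 libraries. The median was 21.5 TPM over the 9 control libraries and 22.8 TPM over the 9 deletion libraries, and the difference by line was 0.06 with a standard error of 0.13. HOXC9 had a median of 10.2 TPM (7.92 to 12.8) in control libraries and 8.39 TPM (5.96 to 12.8) in deletion libraries, a difference of -0.15 with a standard error of 0.19. HOXC8 had 2.79 and 3.16 TPM as medians, and HOXC10 0.78 and 1.05 TPM. Groups of lines overlapped for all 4, and their differences were within 1 standard error of 0.

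HOXC4 and HOXC13 lay farther apart. HOXC4 means of the control lines 1, 2 and 3 were 3.15, 5.20 and 1.92 TPM, and those of the deletion lines m, ld9 and le5 were 3.97, 6.29 and 4.77 TPM. Control line 2 lay above 2 of the deletion lines. The difference was 0.52 with a standard error of 0.30, and 0.40 without the library with the high mitochondrial share. HOXC13 means were 6.32, 6.47 and 5.25 TPM in the control lines and 5.97, 8.94 and 8.49 TPM in lines m, ld9 and le5, a difference of 0.32 with a standard error of 0.18. Line m lay among the control lines, and ld9 and le5 above them. In the authors' deposited table, HOXC4 has a log2 fold change of 0.64 (adjusted p 0.0147) and HOXC13 one of 0.29 (adjusted p 0.0346).

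The lines themselves differed beyond the spread between libraries of 1 line. An F test over the 6 lines in limma called HOXC4, HOXC8, HOXC9 and HOXC13 among the 6 HOXC members, where 33.6% of 16225 genes were called. HOXD13 was called too, but it passed the filter only through the 3 libraries of control line 1, so its value is given below from the fit without the filter. That fit called 14.7% of 33697 genes, and among the HOXC members HOXC4 and HOXC13, with HOXC8 at a limma adjusted p of 0.0526 and HOXC9 at 0.0925. Libraries of 1 line may be technical repeats. HOXC6 and HOXC10 were not called, with limma adjusted p of 0.152 and 0.571.

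HOXC13 was read at 9.49, 9.18 and 8.16 TPM in ld9 and at 8.36, 8.74 and 8.37 TPM in le5, above every library of the other 4 lines, whose highest value was 6.58 TPM. Its line means spanned 0.68 on the log2(TPM + 1) scale (limma adjusted p 0.00162). The antisense RNA HOXC13-AS was likewise highest in ld9 (6.40 to 8.40 TPM) and le5 (6.93 to 7.89 TPM). Elsewhere it stood at 2.38 to 4.56 TPM (limma adjusted p 0.000191). This split of the lines was seen in the values, and the share of all genes that part the same way was not counted. HOXC4 was read at 5.37, 6.05 and 7.46 TPM in ld9 and at 0.72, 2.12 and 2.93 TPM in control line 3, with a span of 1.39 (limma adjusted p 0.00193), and the 0.72 TPM came from the library with the high mitochondrial share.

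HOXC8 was low in control line 1 (1.67, 2.28 and 2.52 TPM) and in line m (2.30, 2.26 and 2.08 TPM), and reached 3.91 TPM in le5. Its span was 0.52 with a limma adjusted p of 0.0204. HOXC9 was lowest in line m, at 5.96, 8.39 and 6.37 TPM, and highest in ld9, at 12.8, 11.5 and 9.34 TPM, with a span of 0.63 and a limma adjusted p of 0.0493. That call was lost without 13 of the 18 single libraries, with an adjusted p of up to 0.152.

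HOXD13, the one HOXD member above 1 TPM in any C4-2B library, marked single lines. It stood at 1.40, 1.48 and 1.51 TPM in control line 1 and at 0.62, 0.45 and 0.62 TPM in control line 2. In control line 3 it was listed at 0, 0.06 and 0 TPM, and the 9 deletion libraries lay between 0 and 0.22 TPM. Its line means spanned 1.27, with a limma adjusted p of 1.40e-07 in the F test without the filter. Between deletion and control lines the exact permutation p was 0.4, since control line 3 lay below 3 of 3 deletion lines in mean. The authors' deposited table, which counts libraries, gives HOXD13 a log2 fold change of -2.33 (adjusted p 0.0257) on a mean normalized count of 13.2.

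HOXD8 was read faintly in the same control lines. It stood at 0.03 to 0.18 TPM in control line 1 and 0.12 to 0.31 TPM in control line 2, at 0 in control line 3 and line m, and at most at 0.06 TPM in ld9 and le5. HAGLR, at the other end of that cluster, was highest in ld9 (2.41 to 2.72 TPM) and le5 (2.41 to 3.37 TPM) and lowest in control line 3 (0.12 to 0.51 TPM), a span of 1.45 with a limma adjusted p of 2.43e-05. Lines high in HOXD13 were therefore not those highest in HAGLR.

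**Figure D5:**
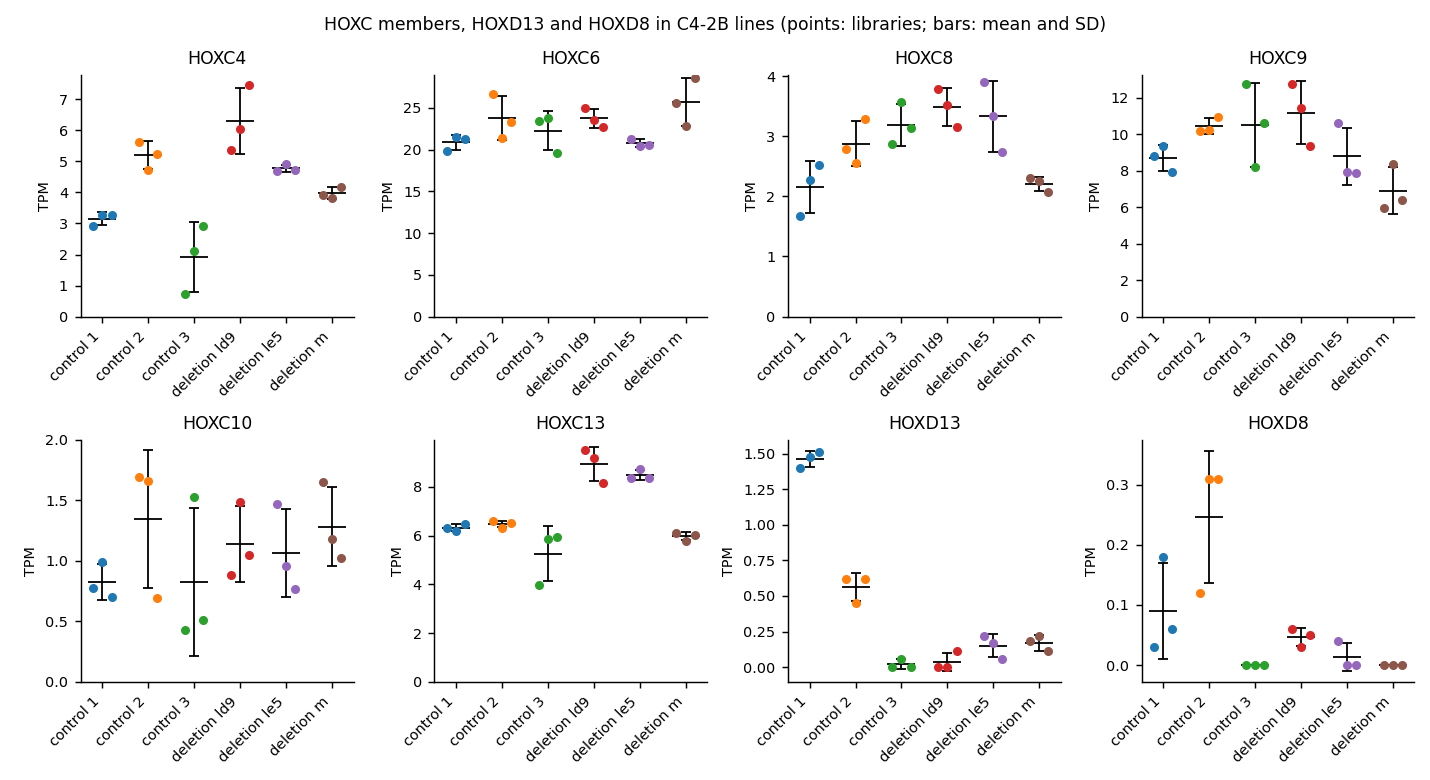
TPM of the 6 HOXC members, HOXD13 and HOXD8 in the 6 C4-2B lines, 1 point a library, with the mean and SD of the 3 libraries of a line as bars. HOXC13 points of ld9 and le5 lie above all others, HOXD13 points of control lines 1 and 2 lie above the rest, and HOXC6 points lie between 19.6 and 28.5 TPM throughout. How many of all genes part the lines in these ways was not counted.

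Other lists in C4-2B held no call between deletion and control lines, with 6 cofactors, 26 Polycomb, 13 Trithorax, 13 HOXC flank and 15 HOXD flank genes tested. The members' median difference was 0.12 over the 6 tested, beside 0.07 over all genes. Between lines the F test called 3 of 8 cofactors, 13 of 26 Polycomb subunits, 7 of 13 Trithorax genes, 5 of 13 HOXC flank and 5 of 16 HOXD flank genes, next to the 33.6% over all genes.

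How members varied together is given as a description, without a test, since the libraries fall into groups that can differ in level. In RWPE-1, over 18 libraries, the 10 pairs among the 5 HOXC members that reached 1 TPM had Pearson r of log2(TPM + 1) between 0.62 and 0.96, highest for HOXC6 with HOXC8. The 6 HOXD pairs ran from -0.59 to 0.83, with HOXD9 and HOXD10 the highest and HOXD13 below 0 with HOXD10 (-0.51). The 20 RWPE-1 pairs of a HOXC with a HOXD member ran from -0.65 to 0.70. Among them HOXD13 had r of 0.61 to 0.70 with the 5 HOXC members, and HOXD10 had r of -0.65 to -0.51. In C4-2B the 15 HOXC pairs ran from -0.24 to 0.80 with a median of 0.12. Over all genes with a mean of at least 1 TPM, the closest to HOXD10 in RWPE-1 were FBLN1 (r = 0.91), MCM3 (0.89) and ESPN (0.88), and the closest to HOXD13 were ZCCHC9 (0.93), MT1L (0.92) and TAF9 (0.92). HOXD9 was closest to RAB26 (0.88) and HOXD8 to MEX3C (0.84). In C4-2B, HOXC13 was closest to NIPSNAP3A (0.96), PPIC (0.96) and CHMP4C (0.95), HOXC8 to IGF1 (0.84), HOXC9 to LY6E-DT (0.78) and HOXC6 to GUCY1A1 (0.73).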

How the data were processed

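RNA-seq of 18 RWPE-1 and 18 C4-2B libraries was used, grouped by their titles. Tools named by the authors in the submitters' processing notes are DESeq2 1.14.1, RSEM 1.3.0, featureCounts 1.5.1, STAR 2.5.2b, Trimmomatic 0.35 and FastQC, with GRCh37 as the build. Which tool made which table is not given in the sources used here. Expression was deposited as TPM, so the authors had already scaled each library to a common total. The authors' deposited DESeq2 tables hold, by their headers, a mean normalized count (a signal over the libraries), a log2 fold change, a standard error and test statistic (each a score), and a raw and an adjusted p-value. TPM keeps no depth, which is therefore unknown for each library. The deposited mean normalized counts sum to 32976812 (RWPE-1 deletion), 19723446 (overexpression) and 17527222 (C4-2B). Of 60252 genes 55487 matched a symbol.

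Tests used limma 3.58.1 (R 4.3.3; lmFit and trended eBayes, two-sided tests) on log2(TPM + 1), which makes differences of low genes smaller than their TPM ratios. A gene was tested where its TPM reached 1 in at least the number of samples of the smaller group, and called where its p, adjusted by Benjamini-Hochberg over every gene tested, was under 0.05. A C4-2B line is 1 clone, so its libraries were averaged, and an F test compared the 6 lines over 18 libraries. Members were also given exact two-sided permutation tests, unadjusted. The fits were tested on simulated data. Alternatives were another pseudocount (0.1), no filter, median-ratio and quantile scaling, robust eBayes, a replicate block, all 18 libraries and leaving out libraries or lines. Named were all members, other cluster genes reaching 1 TPM, list genes called or with the smallest p, and the genes most correlated with members read at 1 TPM throughout. Members and lists were chosen with earlier results of these data known. Of the marker lists, neuroendocrine genes summed to at most 9.50 TPM, fibroblast genes to at most 23.3 TPM and endothelial genes to at most 2.49 TPM in any library. The Hi-C data were not used here.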

Additional observations from a re-analysis of the deposited data

Results flagged for a closer look

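HOXC10 in the 7 RWPE-1 deletion libraries had a highest library, at 0.06 TPM, that lay apart from the other 6 by Dixon's criterion, with 0.660 of the range on the log2(TPM + 1) scale as the gap. Both that value and the others, 0 to 0.02 TPM, are near 0. Of 19 member groups so checked, chance alone marks about 1 in 20 where values are normally spread. That rate does not hold here, since 5 of the 7 libraries were listed at 0.

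The deletion difference of HOXC4 had opposite signs in the cell lines, -0.10 in RWPE-1 and 0.52 in C4-2B on the log2(TPM + 1) scale. HOXC10 likewise gave -0.082 in RWPE-1 and 0.14 in C4-2B. The differences between the lines were not tested, the tables may be normalized separately, and both genes were near 0 TPM in RWPE-1 deletion and control libraries.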

How the results depend on the processing

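The count of members called was 0 in RWPE-1 deletion under 6 of 8 alternatives and without each single library. It was 1 without the filter on low values (HOXC9) and 1 with all 18 RWPE-1 libraries in the fit (HOXD13). Under HOXA13 and in C4-2B deletion it was 0 under each of 7 alternatives and without each library or line. In eGFP against editing controls it was 3, HOXC8 included although the comparison was chosen on HOXC levels. It was 5 when all 18 libraries were used and 1 to 4 without single libraries (1 without eGFP library 1 or 2). The 5 members that differed between C4-2B lines, HOXD13 included, were 3 to 5 without single libraries. It was 3 without any 1 library of control line 1, when HOXD13 no longer passed the filter.

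Signs turned only where differences were near 0. HOXD10 in RWPE-1 deletion gave 0.00229 without control 4, 0.0262 without control 5, 0.00367 without deletion library 3 and 0.0367 without deletion library 7, with a range of -0.077 to 0.0367 over single libraries left out. HOXD8 under HOXA13 gave 0.0151 without HOXA13 library 1 (range -0.21 to 0.0151). In C4-2B deletion HOXC6 gave -0.00718 with median-ratio scaling, -0.00838 with quantile normalization and -0.00171 without line m (range to 0.14), HOXC8 gave -0.0225 without control line 1 (range to 0.25) and HOXC9 gave 0.00662 without line m (range from -0.31). The exact tests of HOXC6, HOXC8 and HOXC10 in RWPE-1 deletion lost an exact permutation p under 0.05 without 3, 7 and 9 of 12 single libraries. That of HOXD13 lost it in none. That of HOXC9 could not lose it, since its groups do not overlap. The cause was not tested.

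Replicate numbers are shared by RWPE-1 groups. Deviations of same-numbered libraries had r of -0.16 to 0.15 for deletion and of -0.03 to 0.005 for HOXA13. The main fits did not use the numbers as pairs, and low r cannot show whether libraries were handled as pairs. With a replicate block, 0 members were called in each RWPE-1 comparison, HOXD10 in deletion turned to 0.0214, HOXD8 in eGFP against editing controls turned to -0.0182, and 450 genes in place of 1464 were called in deletion. Over all genes, HOXA13 gave 131 calls in place of 2 with all 18 libraries and 1 to 5 without single libraries, and C4-2B deletion gave 24 in place of 0 with the line as random block, 6 without the filter, 7 without control line 3 and 2 without line m. A planned count of HOXD contacts in the Hi-C map was not run. TPM gives no counting error, so values under 0.1 TPM cannot be told from 0.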
